A study of Mus musculus with 92 samples.

Results

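The genes described here are the enzymes that conjugate or hydrolyse drugs, hormones and dietary compounds in the gut: the UDP-glucuronosyltransferases (UGT), glutathione S-transferases (GST), sulfotransferases (SULT) and carboxylesterases (CES). They were taken from the 4 deposited gene count tables as the protein-coding rows whose symbols begin with Ugt1 or Ugt2, Gst, Sult1 to Sult6, or Ces1 to Ces5. The names matched 82 of 54532 rows: 19 UGT, 23 GST, 21 SULT and 19 CES genes. Another 9 rows with such names belong to other biotypes and were left out. No read fell on 11 of the 82 genes in any of the 92 libraries, and these were 10 SULT genes (Sult1c1, Sult2a1, Sult2a3 to Sult2a8, Sult3a1 and Sult3a2) and Ugt2a2. The filter on low counts was passed by 56 genes in at least 1 of 21 comparisons and by 44 in all of them, and 26 genes never passed it. Those 26 comprised 13 SULT, 7 UGT, 5 CES and 1 GST gene.

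The study removed Eif4g2, a translation initiation factor, from mouse small intestinal epithelium, and separately treated organoids with A-485, which blocks the acetyltransferase activity of the p300 and CBP coactivators. In tissue, Eif4g2 flox/flox mice were compared with flox/+ mice that carried the same tamoxifen-inducible Cre recombinase (CreER) and also received tamoxifen. With Rosa26(CreER), which is active in many cell types, crypts (4 flox/flox, 5 flox/+) and villi (5 and 5) were taken on day 9. With Vil1(CreER), which is restricted to the intestinal epithelium, tamoxifen was injected at 100 mg/kg on 4 days and crypts (3 and 4) and villi (6 and 4) were taken after 3 months. No tissue library came from mice with 2 intact copies of Eif4g2, since the controls also carried 1 floxed copy. Organoids were grown in ENR medium and taken on day 6 after 24 h in 0.5 µM 4-hydroxytamoxifen (4-OHT) or in DMSO. A first organoid set held 3 flox/flox Rosa26(CreER) lines, each with DMSO and with 4-OHT. A second set held 4 flox/flox, 4 flox/+ and 4 +/+ cultures, all with Rosa26(CreER) and all given 4-OHT, so the +/+ controls carried the recombinase but no floxed copy. Fetal intestinal spheroids came from 6 flox/flox and 5 flox/+ lines with Rosa26(CreER), each with DMSO and with 4-OHT. For A-485, 4 organoid lines (1 +/+ and 3 flox/flox, none given 4-OHT) received 0, 3, 5 or 10 µM for 4 days. The sex and age of the animals are not given in the sources used here.

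UGT enzymes in the endoplasmic reticulum add glucuronic acid from UDP-glucuronate. GST enzymes add glutathione to reactive electrophiles, SULT enzymes add sulfate from the donor PAPS, and the products leave the enterocyte through efflux transporters. CES enzymes split ester and amide bonds of drugs and lipids, and intestinal CES2-type enzymes are known for hydrolysing prodrugs and glycerolipids. In the intestine all 4 families are known chiefly from absorptive enterocytes, which form in the crypt and mature on the villus.

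Many members lie in tandem clusters, with coordinates on GRCm38. On chromosome 8, 8 Ces1 genes lay between 93020214 and 93379725, and 7 Ces2 genes lay between 104734003 and 105021178. The 9 Ugt1a genes on chromosome 1 (88055388 to 88220002) have their own first exons and share their last exons, and 10 Ugt2 genes lay on chromosome 5 (86889767 to 87490871). Counts of close copies are uncertain where reads could be split between them. Of the 50-base words in its transcripts, Gsta1 shared 90.5% with other genes, Ugt1a1 80.2%, Gstp2 54.3% and Ugt2b5 41.7%. The same share was 17.3% for Ces2a, 13% for Ces1c, 1.1% for Ces1d and 0 for Gstt1 and Gsta4. Exons on the opposite strand overlapped 41.5% of Ugt1a1, and the strand setting of the count is not given in the sources used here.

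Ces1 genes are shown here by sequence because several of them fell in the deletion comparisons below, where genes of the Ces2 cluster moved both ways. The sequences are the 250 bases before the start site in the RefSeq annotation of GRCm38.p6, 5′ to 3′ on the gene's strand, with the letters TTTATG in capitals. TTTATG is the core that the intestinal transcription factor CDX2 is known to bind, and it was searched on both strands. The positions are chr8:93080018-93080267 (Ces1b), chr8:93131284-93131533 (Ces1c), chr8:93229620-93229869 (Ces1e) and chr8:93337210-93337459 (Ces1g), all on the minus strand, and chr8:104733753-104734002 (Ces2a), on the plus strand.
Ces1b: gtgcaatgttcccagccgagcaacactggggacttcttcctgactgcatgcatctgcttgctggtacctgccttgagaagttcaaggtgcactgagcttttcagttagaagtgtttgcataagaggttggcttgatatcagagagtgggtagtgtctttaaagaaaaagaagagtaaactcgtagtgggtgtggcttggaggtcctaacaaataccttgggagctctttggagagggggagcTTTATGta
Ces1c: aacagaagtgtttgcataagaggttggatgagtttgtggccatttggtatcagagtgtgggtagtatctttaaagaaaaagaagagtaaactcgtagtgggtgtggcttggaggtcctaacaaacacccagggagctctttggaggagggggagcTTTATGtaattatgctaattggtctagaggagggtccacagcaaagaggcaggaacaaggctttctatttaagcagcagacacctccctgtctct
Ces1e: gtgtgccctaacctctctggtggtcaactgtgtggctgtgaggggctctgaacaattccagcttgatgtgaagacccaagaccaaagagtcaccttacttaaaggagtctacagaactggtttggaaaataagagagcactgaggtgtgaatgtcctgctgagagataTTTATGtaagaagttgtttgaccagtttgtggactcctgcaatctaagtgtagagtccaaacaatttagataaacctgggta
Ces1g: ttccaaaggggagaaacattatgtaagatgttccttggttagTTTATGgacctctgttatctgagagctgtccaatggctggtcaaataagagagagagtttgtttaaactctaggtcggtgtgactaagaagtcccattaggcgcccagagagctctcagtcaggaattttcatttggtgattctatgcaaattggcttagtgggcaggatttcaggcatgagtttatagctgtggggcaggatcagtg
Ces2a: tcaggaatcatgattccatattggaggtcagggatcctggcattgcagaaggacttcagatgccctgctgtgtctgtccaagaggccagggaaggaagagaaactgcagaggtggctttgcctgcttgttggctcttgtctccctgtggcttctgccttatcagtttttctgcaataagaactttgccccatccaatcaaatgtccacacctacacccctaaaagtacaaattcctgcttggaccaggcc
The first base of TTTATG lay at -8 in Ces1b, -95 in Ces1c, -82 in Ces1e and -208 in Ces1g, whose start in the RefSeq table lies 99 bases from the deposited one. In Ces1b and Ces1c the letters stood in the same run of 18 bases, and these windows also shared an identical run of 58 bases. The Ces2a window did not hold the letters, but that of Ces2g did and those of Ces1a and Ces1h did not, so the letters do not divide the clusters. Over the 71 members with a promoter entry, 9 held TTTATG (12.7%), against 10.8% of all 32851 promoters of that length. The letters GCGTG, the core bound by the xenobiotic-sensing aryl hydrocarbon receptor, occurred in 12.7% of member promoters and in 28.2% of all. TGACNNNGC, the element bound by NRF2, occurred in 2.82% and 10.2%. Member promoters held a median of 2 CpG dinucleotides, against 6 over all promoters, and their median GC content was 44.8% against 52.4%. A match in these windows is a description of letters and says nothing about binding.

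Libraries held 8652040 to 37611126 reads assigned to genes, and values are given as counts-per-million (CPM) after TMM scaling within each data set. Eif4g2 checked the labels: it ranged from 337 to 357 CPM in Rosa26 flox/+ crypts and from 67.9 to 98.2 CPM in flox/flox crypts, and in villi from 319 to 384 and from 48.3 to 61.7 CPM. In Vil1 mice it ranged from 437 to 488 against 231 to 240 CPM in crypts and from 357 to 475 against 134 to 182 CPM in villi. It ranged from 704 to 793 (DMSO) against 144 to 148 CPM (4-OHT) in the first organoid set, from 1256 to 1334 (+/+), 789 to 833 (flox/+) and 220 to 269 CPM (flox/flox) in the second, and from 706 to 1202 against 84.9 to 224 CPM in flox/flox spheroids. In flox/+ spheroids it ranged from 668 to 1162 CPM with DMSO and from 334 to 646 CPM with 4-OHT. Enterocyte marker genes (10 genes, among them Alpi, Fabp1 and Sis) summed to 37967 to 93998 CPM in all 4 villus groups together and to 818 to 10814 CPM in the crypt groups. Hepatocyte and pancreas markers (6 genes) summed to at most 32.7 CPM in any library. The Y-linked gene Ddx3y had at least 10 reads in 5 of 5 Rosa26 flox/+ crypt libraries but in 1 of 4 flox/flox ones, and in 5 of 5 against 2 of 5 villus libraries, so male and female animals were not balanced over the Rosa26 groups. Differences were tested with edgeR's quasi-likelihood test over all genes, without a block for line or animal unless stated. Lines or animals were shared between groups in the crypt against villus, first organoid, A-485 and spheroid comparisons. A gene was called where its Benjamini-Hochberg adjusted p was below 0.05, and "rose" and "fell" are used for called genes. In bulk libraries, fewer cells of a type and less RNA per cell cannot be told apart.

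Levels between genes were compared as mean CPM per kb of transcript. In Rosa26 flox/+ crypts the highest members were the GSTs Gstp1 (180 CPM per kb) and Gsto1 (144) and the esterase Ces2e (88.8 ± 20.1, SD, n = 5). In the villi of the same mice Ces2e reached 1287 ± 327, Gstm3 1026 ± 529, Ces2a 793 ± 409 and Ugt2b34, the highest UGT, 505 ± 132 CPM per kb (SD, n = 5). Among the sulfotransferases Sult1b1, which acts on thyroid hormones, stood at 214 ± 25.8 and Sult1d1, which acts on catecholamines, at 178 ± 20.7 CPM per kb in these villi, and these ranges of mean ± SD overlapped. In Vil1 flox/+ villi Gstm3 stood at 805 ± 97.6, Ces2e at 688 ± 83, Ces2a at 364 ± 111 and Ugt2b34 at 323 ± 52.5 CPM per kb (SD, n = 4). Adult +/+ organoids were led by Gstp1 (374), Gsto1 (256) and Gstm1 (224 CPM per kb). Spheroids of flox/+ lines in DMSO were led by Gsta4 (712), which conjugates lipid peroxidation products such as 4-hydroxynonenal, then Gsto1 (512) and Gstp1 (353 CPM per kb).

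Along the crypt-villus axis of Rosa26 flox/+ mice, 41 of 51 tested members were higher in villi and 4 were lower, where 36.4% of all genes were higher, 40.6% lower and 77.1% called in all. All 10 tested UGT genes and all 7 Ces2 genes were higher in villi, with median log2 differences of 2.81 and 4.48. Ces2b rose by 6.00 ± 0.58 on the log2 scale and Ces2a by 4.48 ± 0.38 (SE). Sult6b2 rose by 5.88 ± 0.66, Ugt2b5, a glucuronosyltransferase of steroids and other lipophilic substrates, by 5.05 ± 0.36, and Gstt1, a theta-class transferase of small halogenated compounds, by 3.05 ± 0.12. The 4 members lower in villi were Gstcd (-1.91 ± 0.12), Ces1b (-1.88 ± 0.29), Ces1c (-1.59 ± 0.28) and Gstm5 (-0.85 ± 0.16). Gstcd is named for a GST domain and is not known as an active transferase. In Vil1 flox/+ mice 34 of 51 members were higher in villi and 5 lower (all genes: 32.7% and 35.2%, 67.9% called), again with Ces2a (3.39 ± 0.41), Ugt2b5 (2.51 ± 0.48) and Gstt1 (2.33 ± 0.21) higher and Gstcd (-2.04 ± 0.12) and Ces1b (-2.45 ± 0.43) lower. Here 7 of 9 UGT genes and 5 of 7 Ces2 genes were called higher.

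**Figure D1:**
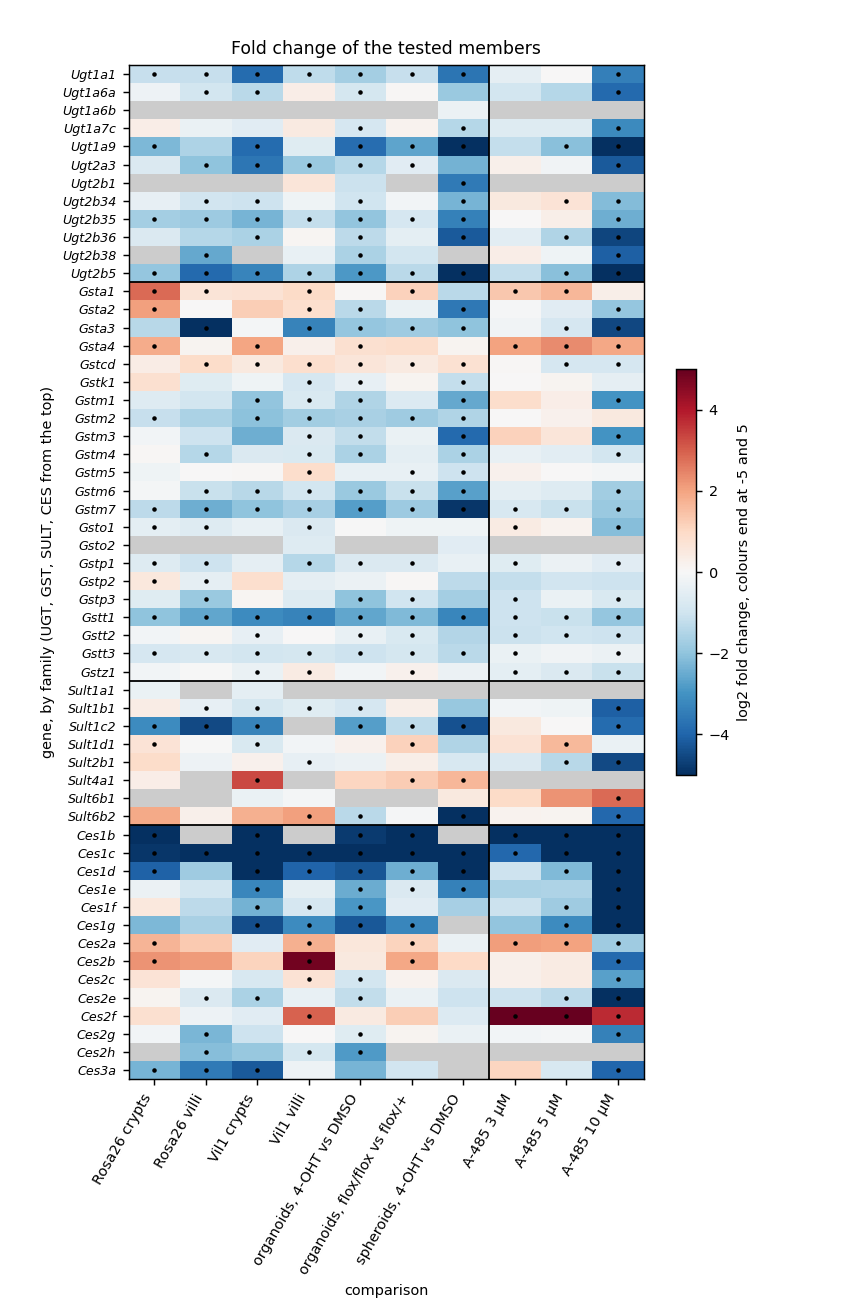
Log2 fold change of the tested members (rows, by family) in 10 comparisons (columns); dots mark genes called at an adjusted p below 0.05, grey marks genes not tested, and colours end at 5 in either direction. The UGT rows carry no call above 0 in the Eif4g2 deletion columns, and in the 10 µM A-485 column 41 of 50 members were called lower.

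UGT genes were lower or not called after loss of Eif4g2 in every tissue comparison. In Rosa26 villi 7 of 10 UGT genes fell and in crypts 4 of 9, with median log2 differences of -1.48 and -0.74. Over all families 26 of 49 members were called in the villi, 2 higher and 24 lower (33.2% of all genes were called, 15% higher and 18.2% lower), and 22 of 50 in the crypts, 7 higher and 15 lower (20.2% called, 8.63% higher and 11.6% lower). The crypt count was 14 without the flox/+ library of replicate 1, 2 or 3 and 13 without that of replicate 5. Ugt1a1, which glucuronidates bilirubin, stood at 88.8, 99.3, 42.7, 119 and 87.2 CPM in flox/+ villi and at 47.1, 25.6, 39, 52.6 and 38.5 CPM in flox/flox villi. Flox/flox villi were the lower group, although 2 of them lay above the lowest flox/+ library. The log2 difference was -1.15 ± 0.25 (SE, adjusted p = 0.00592). Ugt2b5 read 71.1, 137, 56.6, 187 and 143 CPM in flox/+ villi and 4.72, 1.01, 1.6, 9.43 and 24.2 CPM in flox/flox villi, a log2 difference of -3.88 ± 0.81 (adjusted p = 0.00594). Its groups did not overlap. Ugt2a3 (-2.03 ± 0.53) and Ugt2b34 (-0.97 ± 0.26) also fell there.

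In Vil1 mice the deletion effect on 7 UGT genes was less negative in villi than in crypts by the test of that difference, a call that Ugt1a6a, Ugt2b34 and Ugt2b36 lost without the first flox/flox crypt library (adjusted p up to 0.0997, 0.107 and 0.0596 over all alternatives). The shares of members and of all genes with this call are given below with the carboxylesterases, and the share of members is the larger. In crypts 8 of 9 UGT genes fell, with a median of -2.34, and in villi 4 of 11, with a median of -0.38. Of all members tested, 30 of 52 were called in crypts (3 higher, 27 lower) against 29.3% of all genes (11.6% and 17.7%), and 33 of 51 in villi (10 higher, 23 lower) against 42.5% (20.9% and 21.6%). Ugt1a1 stood at 19.8, 16, 23.4 and 36.6 CPM in flox/+ crypts and at 0.766, 1.31 and 2.91 CPM in flox/flox crypts, so every deleted library lay below every control. Its log2 difference was -3.85 ± 0.53 (adjusted p = 0.00272). In villi it was -1.26 ± 0.19 (adjusted p = 0.000184), and the deletion effect differed between villi and crypts by 2.61 ± 0.48 (adjusted p = 0.00358). Ugt2a3 fell by 3.63 ± 0.44 in crypts and by 1.87 ± 0.20 in villi, a difference of 1.77 ± 0.43 (adjusted p = 0.0128). Enterocyte markers summed to 2055 to 4899 CPM in flox/+ and to 818 to 2147 CPM in flox/flox Vil1 crypts, with 6 of 10 called lower, 0 higher and none at 0 over a group. Their part in the UGT values was not tested. In the Rosa26 crypts and villi 0 of 10 and 1 of 10 of these markers were called lower, and 0 and 2 higher.

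More GST genes fell than rose in each tissue comparison. In Rosa26 villi 10 of 21 fell and 2 rose, and in Vil1 villi 12 of 22 fell and 5 rose. In the crypts of the 2 models 6 and 8 of 21 fell and 4 and 2 rose. The falls lay above the shares of all genes called lower that are given above for these comparisons. The rises lay below the shares called higher in Rosa26 villi and Vil1 crypts, near them in Vil1 villi and above them in Rosa26 crypts. Gstt1 read 163, 219, 177, 240 and 220 CPM in Rosa26 flox/+ villi and 33.8, 17.7, 19.8, 52.1 and 52.8 CPM in flox/flox villi (log2 difference -2.58 ± 0.32, adjusted p = 0.000301). In Vil1 flox/+ villi it read 86.9, 87.7, 82.1 and 117 CPM, and in 6 flox/flox villi it ranged from 6.11 to 12.8 with a median of 8.9 CPM (-3.35 ± 0.20, adjusted p = 7.87e-08). The groups lay apart in both models. It also fell in Rosa26 crypts (-2.00 ± 0.26) and in Vil1 crypts (-3.14 ± 0.28). The mu-class gene Gstm7 stood at 60.3, 68.9, 48.2, 74.9 and 68.2 CPM in Rosa26 flox/+ villi and at 12.1, 10.2, 10.9, 13.5 and 13.3 CPM in flox/flox villi (-2.46 ± 0.13, adjusted p = 9.25e-07). Gstp1, the pi-class enzyme, fell by 1.03 ± 0.11 in Rosa26 villi and by 1.42 ± 0.15 in Vil1 villi.

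Within the alpha class, members went opposite ways. Gsta4 stood at 10.8, 9.86, 10.1, 12.3 and 8.81 CPM in Rosa26 flox/+ crypts and at 52.4, 38.5, 17.9 and 35.1 CPM in flox/flox crypts (1.85 ± 0.26, adjusted p = 0.00213). In Vil1 crypts it stood at 8.66, 8.88, 14.8 and 13.9 against 70.1, 29.5 and 35.1 CPM (1.96 ± 0.36, adjusted p = 0.00785). The deleted crypts were higher in each library of both models. Gsta1 rose in Rosa26 crypts from 11.6, 6.45, 4.84, 12 and 9.38 to 106, 50.4, 31 and 53 CPM (2.82 ± 0.39, adjusted p = 0.00184) and in Vil1 villi by 0.95 ± 0.19 (adjusted p = 0.0017), although its reads could be split with its copies. Gsta3 fell in the villi: in Rosa26 mice it read 6.34, 7.78, 6.96, 8.7 and 8.74 CPM in flox/+ and 0.129, 0.338, 0.0912, 0.139 and 0.15 CPM in flox/flox villi (-5.53 ± 0.29, adjusted p = 9.25e-07). The villus and crypt effects on Gsta3 differed by -4.00 ± 0.78 in Rosa26 mice (adjusted p = 0.00486) and by -3.21 ± 0.69 in Vil1 mice (adjusted p = 0.00705). Gstcd rose in Rosa26 villi (0.91 ± 0.15), Vil1 crypts (0.49 ± 0.09) and Vil1 villi (0.83 ± 0.21). In Rosa26 crypts, where Gsta1 and Gsta4 rose, the stem and proliferating markers summed to 318 to 1084 CPM in flox/flox against 4136 to 6887 CPM in flox/+ libraries, and the Paneth markers to 2160 to 9621 against 15121 to 20947 CPM. The part of either in these values was not tested.

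**Figure D2:**
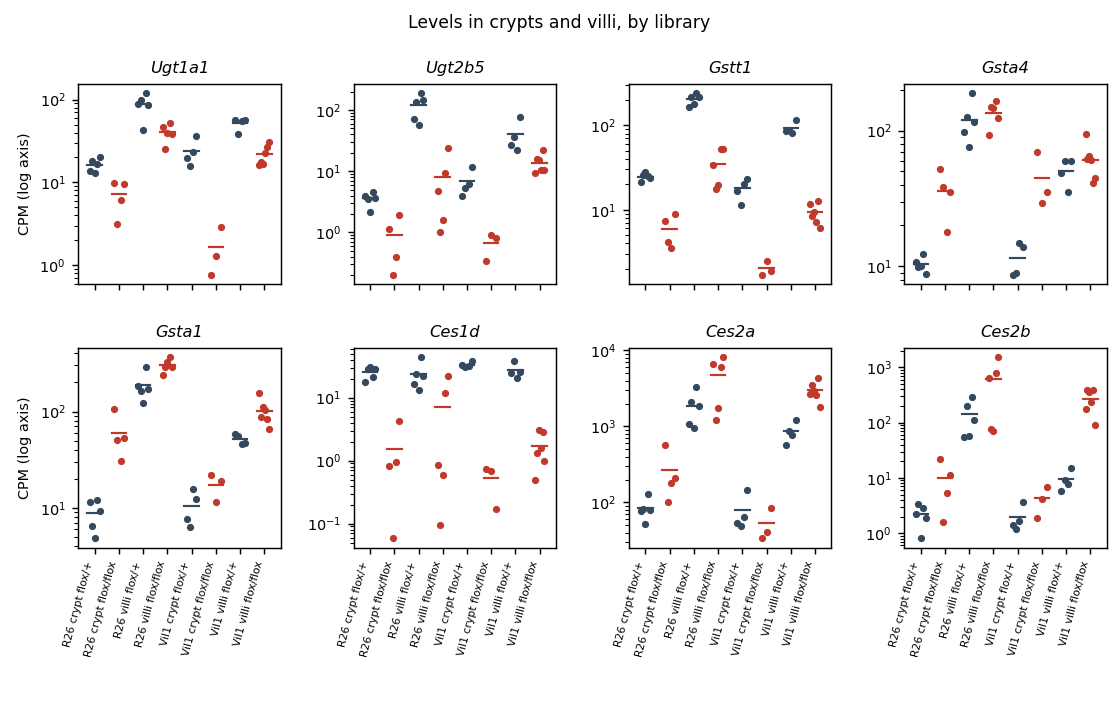
CPM (log axis) of 8 members in every tissue library, with one point per library (red for flox/flox, dark blue for flox/+) and a bar at each group mean. Gstt1 lies lower in each flox/flox group than in its flox/+ group without overlap, Gsta4 lies higher in flox/flox crypts, and Ces2b lies higher in the Vil1 flox/flox villi (90.2 to 396 CPM) than in flox/+ villi (5.79 to 15.4 CPM).

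Few sulfotransferases were expressed enough to test in tissue: 7 and 8 in crypts and 5 in the villi of each model. Sult1c2 stood at 2.78, 3.67, 2.86, 2.88 and 3.18 CPM in Rosa26 flox/+ crypts and at 0.296, 0.232, 0.458 and 0.331 CPM in flox/flox crypts (-3.14 ± 0.26, adjusted p = 0.000199). It also fell in Rosa26 villi (-4.51 ± 0.48) and in Vil1 crypts (-3.34 ± 0.38). Sult6b2 rose in Vil1 villi, from 11.6, 4.45, 3.69 and 2.73 CPM to a range of 18 to 31.2 CPM over 6 libraries with a median of 20.8 (2.06 ± 0.35, adjusted p = 0.000609). Over the 7 homozygous deletion comparisons counted below, Sult6b2 was called higher in 1 and lower in 2. Sult1b1 was called lower in 4 of them and higher in 0. The summed SULT level in Rosa26 villi was 1759 ± 263 CPM in flox/+ and 1707 ± 398 CPM in flox/flox mice (SD, n = 5), a gap smaller than either spread.

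In Vil1 villi the Ces1 and Ces2 clusters moved mostly in opposite directions: 4 of 5 tested Ces1 genes fell, with a median of -3.13, and 4 of 7 Ces2 genes rose and 1 fell, with a median of 0.71. The Ces1 falls and Ces2 rises lay above the shares of all genes in their direction that are given above for these villi. The 1 Ces2 fall lay below that share. Ces1d, which hydrolyses triacylglycerol, stood at 24.7, 38.7, 20.4 and 25.6 CPM in flox/+ villi and from 0.492 to 3.02 CPM, median 1.45, in 6 flox/flox villi (-4.02 ± 0.40, adjusted p = 1.04e-05). Ces2a read 572, 880, 783 and 1202 CPM in flox/+ villi and from 1777 to 4302 CPM, median 2823, in flox/flox villi (1.77 ± 0.27, adjusted p = 0.000187). Neither pair of groups overlapped. Ces2b read 5.79, 9.11, 7.68 and 15.4 CPM in flox/+ villi and from 90.2 to 396 CPM, median 294, in flox/flox villi (4.82 ± 0.51, adjusted p = 4.16e-05). Ces2f (2.96 ± 0.58) rose with it. The summed CES level in these villi was 3669 ± 585 CPM in flox/+ (n = 4) and 5692 ± 1368 CPM in flox/flox mice (n = 6, SD).

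In Vil1 crypts all 6 tested Ces1 genes fell, above the share of all genes called lower that is given above for these crypts. Ces1d stood at 32.4, 30.4, 32 and 37.9 CPM in flox/+ and at 0.728, 0.691 and 0.173 CPM in flox/flox crypts (-5.93 ± 0.38, adjusted p = 0.00011). Ces1g (-4.43 ± 0.67) and Ces1e (-3.25 ± 0.51) fell with it. Ces1c, a secreted plasma esterase, stood at 2.33, 2.24, 1.22 and 0.702 CPM in flox/+ crypts and had no read in 3 flox/flox crypts, at least 16.7-fold lower against a floor of 3 reads per library. Ces1b had 194 reads over the flox/+ and 1 over the flox/flox crypts, a ratio of 111 (95% counting interval 19.8 to 4426). Of 7 Ces2 genes in these crypts 1 was called, below the share of all genes called there. This was Ces2e, which fell by 1.59 ± 0.25. The deletion effect on Ces2a differed between Vil1 villi and crypts by 2.37 ± 0.54 (adjusted p = 0.0103) and that on Ces2b by 3.73 ± 0.75 (adjusted p = 0.00627). In all, the effect of deletion in Vil1 mice differed between villi and crypts for 23 of 55 members (18 higher, 5 lower in villi), against 15.5% of all genes (9.38% higher, 6.14% lower), and for 12 members without the first flox/flox crypt library.

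In Rosa26 crypts 3 of 6 Ces1 genes fell, above the share of all genes called lower that is given above for these crypts. In Rosa26 villi 1 of 5 fell, near that share for the villi. Of the Ces2 genes 2 of 6 rose and 0 fell in these crypts, with a median of 0.76. In the villi 0 of 7 rose and 3 fell, with a median of -0.25. The 2 rises and the 3 falls lay above the shares of all genes in their direction. Those that rose in crypts were Ces2a (1.71 ± 0.46, adjusted p = 0.0297) and Ces2b (2.25 ± 0.67, adjusted p = 0.043), and the groups overlapped. Ces2a lost its call without the flox/+ library of replicate 1, 2, 3 or 5 or the flox/flox library of replicate 1 (adjusted p up to 0.07 over all alternatives). Ces2b lost it without any 1 of the flox/+ libraries or the flox/flox library of replicate 1 or 4 (up to 0.116). Ces1c stood at 2.78, 2.34, 4.22, 3.47 and 3.01 CPM in flox/+ and at 0, 0.203, 0.125 and 0.0737 CPM in flox/flox crypts (-4.86 ± 0.61, adjusted p = 0.00111). For Ces1c in villi, 109 reads in flox/+ stood against 3 in flox/flox libraries, a ratio of 41 (95% counting interval 13.7 to 202). In villi Ces1d was spread widely over the flox/flox mice, at 0.859, 0.0965, 0.593, 11.9 and 21.9 CPM, and did not pass the test (-1.78 ± 1.03, adjusted p = 0.211). Ces2a was likewise spread, at 6579, 1220, 1764, 5981 and 8209 CPM in flox/flox against 1072, 2116, 947, 3344 and 1877 CPM in flox/+ villi, and its difference of 1.31 ± 0.55 did not pass (adjusted p = 0.0937). Ces2g (-2.28 ± 0.34) and Ces3a (-3.53 ± 0.74) fell in these villi. The effect of deletion in Rosa26 mice differed between villi and crypts for 8 of 53 members, 1 higher and 7 lower in villi, against 11.5% of all genes (6.68% higher, 4.86% lower), and for 5 members with the animal as a block.

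**Figure D3:**
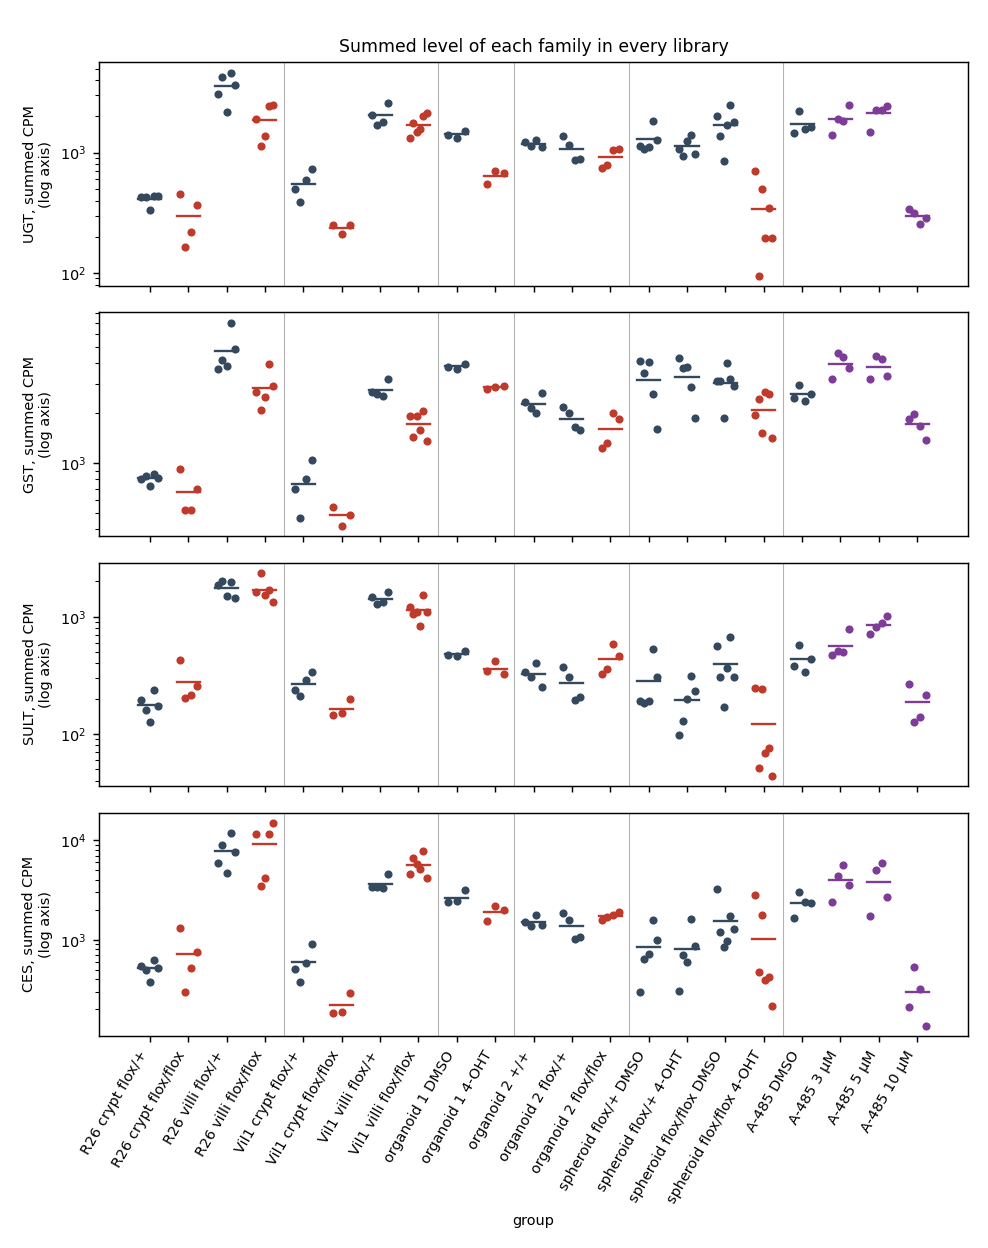
Summed CPM of each family (panels, log axis) in every library of every group, with a bar at each group mean; red marks flox/flox groups after deletion, purple marks A-485 and dark blue the others. The UGT sum falls in 4-OHT flox/flox spheroids (mean 338 against 1704 CPM in DMSO) and at 10 µM A-485 (298 against 1727 CPM), and villus libraries lie above crypt libraries in the flox/+ groups.

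In organoids, where deletion was induced in culture, 39 of 52 tested members were called in the first set, 2 higher and 37 lower, against 35.4% of all genes (18.2% higher, 17.2% lower). By family 10 of 11 UGT, 14 of 21 GST, 3 of 6 SULT and 10 of 14 CES genes fell. Genes of the Ces2 cluster fell here too: 4 of 7 fell and 0 rose (median -0.60), with Ces2e at -1.25 ± 0.18 and Ces2c at -0.91 ± 0.20, beside 6 of 6 Ces1 genes (median -4.26). Ces2a was not called by this test, which did not pair the cultures of a line. It stood at 562, 643 and 910 CPM with DMSO and at 835, 1186 and 1132 CPM with 4-OHT, higher in each line. Ugt1a1 stood at 24.2, 29.5 and 31.4 CPM with DMSO and at 8.07, 9.97 and 8.09 CPM with 4-OHT (-1.70 ± 0.15, adjusted p = 0.000445). Ces1d stood at 64.8, 64.4 and 85.1 CPM with DMSO and at 3.28, 5.93 and 1.98 CPM with 4-OHT (-4.27 ± 0.37, adjusted p = 0.000464). Every 4-OHT culture lay below every DMSO culture for both genes. Ces1c fell from 1.87, 2.46 and 2.79 CPM to no read in 3 cultures, at least 25-fold lower. Gstm1 stood at 704, 700 and 708 against 210, 294 and 234 CPM (-1.52 ± 0.13), and Sult1c2 at 35.1, 33.2 and 24.2 against 4.85, 4.45 and 4.46 CPM (-2.75 ± 0.17). The 2 members that rose were Gsta4, from 501, 491 and 393 to 916, 758 and 723 CPM (0.79 ± 0.13, adjusted p = 0.00427), and Gstcd (0.61 ± 0.11). Both treatments were applied to the same lines, and DMSO cultures received no 4-OHT, so the agent and the deletion cannot be told apart in this set alone. Enterocyte markers summed to 12756 to 17156 CPM with DMSO and to 5767 to 8886 CPM with 4-OHT, with 7 of 10 called lower, and their part was not tested.

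The second organoid set gave 4-OHT to all genotypes. Flox/flox cultures differed from flox/+ in 28 of 50 members, 7 higher and 21 lower (46.8% of all genes called, 22.6% higher and 24.3% lower), and from +/+ in 29, 4 higher and 25 lower (45.3% called, 21.9% and 23.5%). These 2 comparisons share the flox/flox cultures. Ces1c stood at 0.134, 0, 0 and 0.179 CPM in flox/flox, at 5.41, 6.5, 2.99 and 3.74 CPM in flox/+ and at 4.18, 3.22, 3.47 and 4.49 CPM in +/+ cultures. The flox/flox to flox/+ difference was -5.77 ± 0.50 (adjusted p = 4.52e-07). Gstt1 stood at 6.74, 8.54, 11.5 and 9.18 CPM in flox/flox against 44.4, 45.8, 41.5 and 35.6 CPM in flox/+ and 41.7, 43.4, 38.3 and 45.6 CPM in +/+ cultures (-2.21 ± 0.13 from flox/+, adjusted p = 1.06e-08). For both genes flox/flox stood apart while the other 2 genotypes overlapped. Ces2a rose, at 823, 912, 913 and 905 CPM in flox/flox against 543, 500, 275 and 335 CPM in flox/+ cultures (1.10 ± 0.19, adjusted p = 0.000784), and Ces2b rose by 1.95 ± 0.37. Of 6 Ces1 genes 5 fell, with a median of -2.86, and of 6 Ces2 genes 2 rose and 0 fell, with a median of 0.64. Ugt1a1 fell by 1.14 ± 0.20 and Ugt1a9 by 2.64 ± 0.31.

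Loss of a single copy was tested by flox/+ against +/+ organoids, both with 4-OHT. Eif4g2 itself fell by 0.68 ± 0.07 on the log2 scale. None of the 50 tested members was called by edgeR's quasi-likelihood test (0.113% of all genes called, 0.0492% higher and 0.0633% lower; 1481 genes, 10.4%, had an unadjusted p below 0.05), and DESeq2 also called 0 members. The log2 differences were 0.28 ± 0.30 for Ces1c (adjusted p = 0.794), -0.02 ± 0.12 for Gstt1 (0.975) and 0.01 ± 0.19 for Ugt1a1 (0.992). Other members lay further from 0 without a call. They included Ces1g at -1.23 ± 0.53 (0.453), Gsta3 at -0.68 ± 0.26 (0.405), Gstp3 at 0.57 ± 0.18 (0.248) and Gstt2 at 0.30 ± 0.10 (0.303). The groups of Gstt2 did not overlap.

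In fetal spheroids members of all 4 families fell when both copies were deleted. In flox/flox lines 27 of 50 members were called with 4-OHT against DMSO, 2 higher and 25 lower (19.1% of all genes called, 9.01% higher and 10% lower), comprising 8 of 11 UGT, 12 of 22 GST, 2 of 7 SULT and 3 of 10 CES genes that fell. Ugt2b34 ranged over 6 lines from 580 to 1459 CPM, median 1164, with DMSO and from 50.1 to 493 CPM, median 162, with 4-OHT (-2.34 ± 0.38, adjusted p = 0.000267). Ugt2b35 ranged from 109 to 205, median 183, and from 4.98 to 37.6, median 12.7 CPM (-3.36 ± 0.38, adjusted p = 1.1e-05). Gstm1 ranged from 156 to 610, median 240, and from 30 to 95.9, median 43.7 CPM (-2.54 ± 0.36, adjusted p = 7.16e-05). None of these pairs of groups overlapped. Gstt1 ranged from 17.9 to 49.4, median 29.3, with DMSO and from 1.13 to 5.8, median 2.55 CPM, with 4-OHT (-3.26 ± 0.48, adjusted p = 0.000123). Sult1c2 ranged from 11.6 to 70.8, median 30.9, and from 0 to 5.62, median 1.31 CPM (-4.34 ± 0.74, adjusted p = 0.000473). Ces1c ranged from 0.964 to 4.22 CPM with DMSO and had no read in 6 of 6 lines with 4-OHT, at least 14.2-fold lower, and Ces1d likewise had none with 4-OHT, at least 9.09-fold lower. The summed UGT level went from 1704 ± 557 to 338 ± 226 CPM (SD, n = 6).

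Gstcd (0.76 ± 0.14, adjusted p = 0.000659) and Sult4a1, a brain-type sulfotransferase (1.66 ± 0.44, adjusted p = 0.0106), were the members that rose in spheroids. Gsta4, which rose in crypts and in the first organoid set, had medians of 626 and 923 CPM in spheroids and did not pass (0.15 ± 0.44, adjusted p = 0.867), and neither did Ces2a (-0.35 ± 0.62, adjusted p = 0.757). No Ces2 gene was called by this test, which did not pair the 2 cultures of a line. Ces2g was lower with 4-OHT in each line, at 110, 55.1, 8.7, 44.5, 82.7 and 81.9 CPM. The same lines in DMSO stood at 119, 81.5, 15.5, 63.9, 94.7 and 114 CPM. For the other tested Ces2 genes the lines went both ways. Enterocyte markers summed to 878 to 10768 CPM with DMSO and to 20.4 to 7310 CPM with 4-OHT, with 1 of 10 called lower.

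In the 5 flox/+ spheroid lines no member was called between 4-OHT and DMSO (0% of all genes by edgeR's quasi-likelihood test, 15 genes at an unadjusted p below 0.05, and 0 members by DESeq2). Gstt1 stood at 14, 35.5, 47.4, 30 and 61.6 CPM with DMSO and at 10.6, 39.5, 36.5, 24.6 and 61.6 CPM with 4-OHT in the same lines (-0.12 ± 0.48), with lines going both ways. Ugt1a1 stood at 2.11, 14.9, 12, 31.2 and 27.3 CPM with DMSO and at 1.61, 8.3, 8.28, 20.5 and 16.8 CPM with 4-OHT, lower in 5 of 5 lines (-0.66 ± 0.88). The unpaired test did not call Eif4g2 either (-0.81 ± 0.24, adjusted p = 1), so the absence of calls in it says little about changes of that size. With the line as a block Eif4g2 was the 1 gene called of 13933 (-0.80 ± 0.08, adjusted p = 0.0159). In that fit 10 of 49 tested members were lower and 4 higher at an unadjusted p below 0.05 (7.2% of all genes in either direction), and none was called. Among the 10 were Ugt1a1 (-0.63 ± 0.12, adjusted p = 0.197), Ugt1a9 (-0.89 ± 0.21), Ugt2b5 (-0.93 ± 0.26), Ugt2b36 (-0.70 ± 0.17) and Ugt2a3 (-0.57 ± 0.16), with adjusted p of 0.281, 0.383, 0.29 and 0.356 for the last 4. The response of flox/flox lines differed from that of flox/+ lines for 10 of 50 members, all lower (1.62% of all genes called, 0.971% lower), and for 28 with the line as a block. Gstt1 differed by -3.13 ± 0.67 (adjusted p = 0.0186), Gstm1 by -2.73 ± 0.51 (adjusted p = 0.00802) and Ugt2b35 by -3.21 ± 0.53 (adjusted p = 0.00425). Set directly against flox/+ spheroids in 4-OHT, flox/flox spheroids differed in 17 of 50 members, 1 higher and 16 lower (10.5% of all genes called, 4.36% and 6.13%).

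Between spheroids and adult organoids, both flox/+ with 4-OHT, 28 of 51 members differed, 12 higher and 16 lower in spheroids (47.9% of all genes called, 25.1% and 22.8%). Gsta4 stood at 1287, 1145, 1146, 756 and 304 CPM in spheroids and at 174, 128, 103 and 95 CPM in organoids (2.89 ± 0.41, adjusted p = 0.000502). Ces2f was also higher in spheroids (4.36 ± 0.58), and Ces1d was lower, at 0, 1.27, 1.86, 0.977 and 2.5 against 35.9, 36, 25.8 and 21.8 CPM (-4.47 ± 0.67, adjusted p = 0.000693). The culture type and the set in which libraries were made cannot be told apart here.

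A-485 changed the members differently at low and high dose. At 3 µM 14 of 50 members were called, 5 higher and 9 lower (19.2% of all genes, 10.8% and 8.42%), and at 5 µM 22, 6 higher and 16 lower (49.6%, 24.4% and 25.1%). At 10 µM 44 were called, 3 higher and 41 lower (62%, 29.4% and 32.6%). All doses share the same DMSO cultures. Set directly against 3 µM, 10 µM was lower for 38 of 50 members and higher for 0, where 27.2% of all genes were lower and 22.1% higher (49.3% called). At 10 µM all 10 UGT genes fell, with a median of -3.98, as did 15 of 21 GST, 4 of 6 SULT and 12 of 13 CES genes.

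Ces2a rose and then fell with dose. It stood at 445, 841, 691 and 686 CPM in DMSO, at 1618, 3077, 4061 and 2511 CPM at 3 µM, at 1100, 3766, 4151 and 1886 CPM at 5 µM and at 123, 368, 200 and 76.2 CPM at 10 µM. Every 3 µM culture lay above and every 10 µM culture below every DMSO culture, for log2 differences of 2.08 ± 0.49 (adjusted p = 0.00741) and -1.79 ± 0.48 (adjusted p = 0.00452). Between 10 and 3 µM the difference was -3.87 ± 0.52 (adjusted p = 2.2e-05). Ces2e, in the same cluster, went down at each dose, from 702, 1196, 1011 and 962 CPM in DMSO. It stood at 254, 555, 708 and 392 CPM at 3 µM and at 192, 494, 600 and 278 CPM at 5 µM. At 10 µM it stood at 19.3, 40.4, 19.9 and 11.4 CPM. Ces2e was called at 5 µM (-1.31 ± 0.41) and 10 µM (-5.40 ± 0.49). Ces2f stood at 0, 0.559, 1.21 and 1.39 CPM in DMSO, at 43.9, 29.8, 17.4 and 31.1 CPM at 3 µM and at 6.73, 12.5, 13.1 and 9.96 CPM at 10 µM, and rose at each dose (5.26 ± 0.49, 5.72 ± 0.50 and 3.73 ± 0.49). The Ces2 cluster thus held genes that differed in direction at 5 and 10 µM.

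Ces1 genes fell without a rise at any dose: 2 of 6 at 3 µM, 5 at 5 µM and 6 at 10 µM. Ces1d stood at 29.2, 61.6, 45.4 and 53.7 CPM in DMSO, at 10.6, 27.2, 34.4 and 20.8 CPM at 3 µM, at 3.02, 15.1, 16.5 and 6.16 CPM at 5 µM and at 0.358, 0.469, 0 and 0 CPM at 10 µM (-1.03 ± 0.48, not called, then -2.22 ± 0.50 and -7.67 ± 0.74). Ces1b, whose upstream sequence is printed above, stood at 3, 5.27, 3.39 and 4.79 CPM in DMSO and had no read in 4 cultures at either 5 or 10 µM, at least 17.5-fold and 17.4-fold lower.

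Gsta4 rose at every dose and stayed high at 10 µM, at 216, 219, 126 and 129 CPM in DMSO and 658, 697, 529 and 865 CPM, 851, 930, 872 and 853 CPM and 722, 721, 640 and 583 CPM at 3, 5 and 10 µM. The log2 differences were 2.00 ± 0.18, 2.35 ± 0.18 and 1.95 ± 0.18, and 10 µM did not pass the test against 3 µM (-0.04 ± 0.17, adjusted p = 0.858). Gsta1 stood at 206, 263, 192 and 196 CPM in DMSO, at 510, 580, 559 and 515 CPM at 3 µM and at 306, 305, 281 and 154 CPM at 10 µM, rising at 3 µM (1.34 ± 0.19) and falling again between 3 and 10 µM (-1.05 ± 0.19, adjusted p = 0.00019). Gsto1 fell at 10 µM from 535, 617, 584 and 605 to 141, 146, 119 and 123 CPM (-2.14 ± 0.11, adjusted p = 5.62e-11), and Gstt1 fell at every dose (-1.02 ± 0.21, -1.12 ± 0.21 and -1.94 ± 0.22). Ugt2b34 stood at 799, 1219, 821 and 888 CPM in DMSO and at 241, 216, 174 and 211 CPM at 10 µM (-2.15 ± 0.20, adjusted p = 4.7e-08), after a rise at 5 µM (0.70 ± 0.19, adjusted p = 0.0059). Sult1d1 rose at 5 µM, from 190, 292, 158 and 220 to 585, 593, 650 and 806 CPM (1.62 ± 0.27, adjusted p = 9.8e-05), and Sult1b1 fell at 10 µM (-4.09 ± 0.35). Enterocyte markers summed to 6953 to 13746 CPM in DMSO, 2607 to 6592 CPM at 3 µM, 2077 to 5487 CPM at 5 µM and 229 to 612 CPM at 10 µM, and 7, 7 and 10 of 10 were called lower. Their part in these values was not tested.

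Over 7 comparisons of homozygous deletion (Rosa26 and Vil1 crypts and villi, both organoid sets and flox/flox spheroids), 7 of the 44 members tested in all of them were called lower each time: Ugt1a1, Ugt2b5, Ugt2b35, Gstm7, Gstt1, Gstt3 and Ces1c. That is 15.9% of these members, against 204 of 12043 genes tested in all 7 (1.69%). No member was called higher in all 7 (189 genes, 1.57%). At least 5 calls lower and none higher were found for 14 members (31.8%, against 7.88% of all genes), and at least 5 higher and none lower for 1, Gstcd (2.27%, against 6.85%). Another 7 members, among them Gsta2, Sult1d1 and Ces2c, were called in both directions (15.9%, against 9.94%). Crypts and villi came from the same animals, so these comparisons are not independent of each other. Of the 7 members, Gstt1 and Ces1c kept their call in Rosa26 crypts with Ddx3y reads as a covariate, while adjusted p was 0.372 for Ugt1a1, 0.34 for Ugt2b5, 0.106 for Ugt2b35, 0.341 for Gstm7 and 0.155 for Gstt3. The calls of Ugt1a1, Ugt2b5 and Gstm7 in Rosa26 crypts were also lost without single libraries. In Rosa26 villi Ugt2b35 lost its call without any 1 of the 5 flox/+ libraries or the flox/flox library of replicate 1 or 3 (adjusted p up to 0.118 over all alternatives).

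The genes around these families were read from lists of cofactor, transport, deconjugation and regulatory genes. Of 12 tested genes that supply the cofactors, 4 fell and 0 or 1 rose in each of the Rosa26, organoid and spheroid deletions. In Vil1 crypts 3 fell and 2 rose (17.7% and 11.6% of all genes). Gclm, Papss1, Ugdh and Ugp2 fell and Gclc and Slc35d1 rose in Vil1 villi (21.6% and 20.9% of all genes). With both directions together, 4 of 12 were called in Rosa26 villi and 5 of 12 in both organoid sets. There 33.2%, 35.4% and 46.8% of all genes were called, so these totals lie near the background. The falls alone, 4 of 12, lay above the 18.2% and 17.2% of all genes lower in Rosa26 villi and the first organoid set. In Rosa26 crypts and in flox/flox spheroids 5 of 12 were called, where 20.2% and 19.1% of all genes were called. Among 7 efflux transporters, 4 rose and 1 fell in Vil1 crypts (all genes: 11.6% and 17.7%) and 4 rose and 2 fell in the first organoid set (18.2% and 17.2%). Abcb1b, a P-glycoprotein, rose by 3.24 ± 0.60 and 2.12 ± 0.26 in these, while Abcg2, which exports sulfate and glucuronide conjugates, fell by 1.69 ± 0.22 and 1.57 ± 0.16. Abcg2 also fell in Rosa26 villi (-1.50 ± 0.22) and at 10 µM A-485 (-3.26 ± 0.18). No transporter of this list was called in Rosa26 crypts. Other conjugation and esterase genes fell in 8 of 11 cases in Rosa26 villi (18.2% of all genes) and in 9 of 11 in the first organoid set (17.2%). Fewer of them fell in the other deletion comparisons. Only Mgll, Mgst1 and Nqo1 fell in Rosa26 crypts, and only Aadac, Mgll, Mgst1 and Nqo1 in the second organoid set against flox/+. In Vil1 villi Lipe, Mgll, Mgst1, Nat2, Nqo1 and Tpmt fell while Ephx1 and Mgst2 rose. The shares of all genes called there are given above. Nqo1, a quinone reductase under NRF2 control, fell by 1.98 ± 0.21 in Rosa26 villi. It also fell in Rosa26 crypts, Vil1 villi and both organoid sets. In Vil1 crypts (-0.55 ± 0.31) and flox/flox spheroids (-0.04 ± 0.43) Nqo1 was not called. Ephx1 fell in Rosa26 villi (-3.14 ± 0.61) and the first organoid set (-0.54 ± 0.08) but rose in Vil1 crypts (1.56 ± 0.22) and villi (1.52 ± 0.16). Of 13 transcriptional regulators of these enzymes, 1 rose and 10 fell at 10 µM A-485 (29.4% and 32.6% of all genes). Among those that fell were Hnf4a (-1.24 ± 0.10), Cdx2 (-1.09 ± 0.18) and the pregnane X receptor gene Nr1i2 (-2.65 ± 0.20). After deletion Hnf4a rose in Rosa26 villi (0.89 ± 0.17), Vil1 villi (0.43 ± 0.15) and the second organoid set (0.35 ± 0.06, from flox/+). Nr1i2 fell in Vil1 crypts (-0.70 ± 0.15), the first (-0.75 ± 0.13) and second (-0.33 ± 0.09) organoid sets and flox/flox spheroids (-0.95 ± 0.17). Cdx2 fell in Rosa26 crypts (-0.53 ± 0.14), Vil1 crypts (-0.37 ± 0.11), Vil1 villi (-0.47 ± 0.12) and the first organoid set (-0.34 ± 0.07). In the rest of the 7 deletion comparisons these genes were not called. Among 5 deconjugating enzymes, 3 fell and 1 rose in both villus comparisons (18.2% and 21.6% of all genes lower, 15% and 20.9% higher).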

How the data were processed

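Libraries were poly(A)-selected and directional, per the labels' protocols, and the submitters' processing notes name HISAT2 2.0.5 and the builds GRCm38 and mm10. The authors deposited raw counts of reads per gene. The counting program, annotation release and strand setting are not given in the sources used here. The 4 tables were read separately, and no sample column was left unused.

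Genes were filtered with filterByExpr, scaled by TMM and tested over all genes with edgeR 4.0.16 (R 4.3.3), with Benjamini-Hochberg adjustment and a threshold of 0.05. SE is the absolute log2 fold change divided by the square root of F. Levels are CPM after TMM, and levels between genes are CPM per kb. Totals of 8652040 to 37611126 reads set the precision. The floor for a group without reads was 3 reads per library, and intervals cover counting error only. On simulated counts with the real means, the test recovered 78.8% of changes of 2 and 42.9% of changes of 1 on the log2 scale for the Rosa26 crypt comparison over 15598 genes, and 69.7% and 36% for flox/flox spheroids over 14771 genes. The simulated libraries were drawn independently, without effects shared by the cultures of a line. The spheroid values therefore do not describe recovery in the real, paired cultures.

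The members, gene lists and tests were chosen with earlier results of these data known. Named genes are a selection from up to 3 called members per family and direction with the largest change at a mean log2 CPM of at least 1, a preset list of well-known members, and the 3 with the highest level per length. Ces1b, Ces1c, Ces2f, Sult4a1 and some genes named for calls shared over comparisons, as well as the regulators and transporters named, were picked after their values were seen. Line or animal pairs the spheroid, A-485, first organoid and crypt against villus libraries (same line or animal in the labels). Correlations of paired deviations ranged from 0.385 to 0.783 in flox/flox spheroids. Alternatives were DESeq2 1.42.0 size factors and Wald test, no filter beyond 1 read, blocks, covariates for Ddx3y and animal series, only the groups compared, and leaving out each library.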

Additional observations from a re-analysis of the deposited data

Results flagged for a closer look

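A test of the difference of the deletion effect passed for 41 combinations of member and setting. Between villi and crypts of Rosa26 mice, the effect was lower in villi for Gsta3 (-4.00), Ces2g (-2.08), Gsta1 (-2.06), Gsta2 (-1.89), Gsta4 (-1.63), Sult2b1 (-1.08) and Gstp2 (-0.89) and higher for Gstcd (0.65), all as log2 differences. With the animal as a block the adjusted p was 0.0621 for Gsta2, 0.0631 for Gsta4, 0.117 for Gstcd and 0.0809 for Sult2b1.

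In Vil1 mice the effect was higher in villi than in crypts for the carboxylesterases Ces3a (3.94), Ces2b (3.73), Ces2f (3.59), Ces1e (2.78), Ces2a (2.37), Ces1d (1.93), Ces2c (1.52) and Ces2e (1.22). The same held for Ugt1a9 (3.24), Ugt1a1 (2.61), Ugt2a3 (1.77), Ugt2b36 (1.71), Ugt1a6a (1.71), Ugt2b35 (1.17) and Ugt2b34 (0.84), and for Gstm5 (0.85), Gstz1 (0.74) and Gstt2 (0.44). It was lower in villi for Gsta3 (-3.21), Gsto2 (-2.54), Gsta4 (-1.69), Gstp2 (-1.25) and Gstp1 (-0.96). Of these 23 members, 12 were called without the first flox/flox crypt library, and among the others Ces2f lost its call without the second (adjusted p = 0.0521).

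In spheroids the 4-OHT effect was lower in flox/flox than in flox/+ lines for Ces1c (-7.97), Ces1d (-7.72), Gstm7 (-4.84), Ugt2b35 (-3.21), Gstt1 (-3.13), Gstm1 (-2.73), Ugt2b34 (-2.16), Gstm4 (-1.69), Gstm2 (-1.55) and Gstt3 (-1.25). The values of Ces1c and Ces1d depend on the prior count, since flox/flox lines had no read with 4-OHT. Gstm4 and Ugt2b34 lost their calls without single libraries of either genotype (adjusted p up to 0.0929 and 0.0994 over all alternatives).

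In 14 of 210 group levels 1 library lay apart from its group by Dixon's ratio, and chance flags about 1 in 20 groups. Among summed levels these were CES at 3257 CPM in the first flox/flox spheroid line with DMSO (next 1719), CES at 4544 CPM in the fourth Vil1 flox/+ villi (next 3427), SULT at 790 CPM in the fourth line at 3 µM A-485 (next 508), UGT at 331 CPM in the third Rosa26 flox/+ crypts (next 424) and UGT at 1844 CPM in the fourth flox/+ spheroid line with DMSO (next 1263). In that spheroid library Ugt2b34 stood at 1146 CPM (next 797). In the second Rosa26 flox/flox villi Gsta3 stood at 0.338 CPM (next 0.15) and Ces1c at 0.145 CPM (next 0). In Vil1 flox/+ mice Ugt1a1 stood at 38.2 CPM in the second villi (next 55), Gstt1 at 117 CPM in the fourth villi (next 87.7) and Ces2a at 148 CPM in the fourth crypts (next 65.2). The others were Ces2a at 823 CPM in the first flox/flox organoids of the second set (next 905), Sult1c2 at 5.62 CPM in the sixth flox/flox spheroid line with 4-OHT (next 1.75) and Gsta1 at 154 CPM in the fourth line at 10 µM A-485 (next 281).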

How the results depend on the processing

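Of 547 calls on single genes, 421 were kept under every alternative run and 126 were lost under at least 1. No called value changed sign. Leaving out 1 library at a time gave 13 to 25 called members in Rosa26 crypts (14 without the flox/+ library of replicate 1, 2 or 3 and 13 without that of replicate 5), 21 to 30 in Rosa26 villi, 22 to 37 in Vil1 crypts, 29 to 35 in Vil1 villi, 35 to 40 in the first organoid set, 25 to 27 in the second against flox/+ and 25 to 30 in flox/flox spheroids. It gave 6 to 10 for the villus-crypt difference in Rosa26 mice and 12 to 28 in Vil1 mice, the 12 without the first flox/flox crypt library. It gave 11 to 14, 20 to 24 and 42 to 45 at 3, 5 and 10 µM A-485.

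With the animal as a replicate block the villus-crypt difference in Rosa26 mice was called for 5 members, and with the line as a replicate block the flox/flox to flox/+ difference in spheroids was called for 28, against 18 with the DESeq2 Wald test and 10 as reported. The block by line or animal moved no other count by over 1.5 times. Replicate numbers that do not pair samples, taken as a block, gave 4 called members between flox/flox and flox/+ spheroids in 4-OHT (17 without it) and 1 between flox/+ and +/+ organoids (0 without it). With Ddx3y reads as a covariate 16 members were called in Rosa26 crypts and 22 in Rosa26 villi. The cause of these shifts was not tested.

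Members that were not called and lay near 0 changed sign when single libraries were left out. Over those settings the log2 difference ranged between -1.15 and 0.06 for Ces2a and -0.00 and 0.44 for Gsta4 in flox/flox spheroids, -0.44 and 0.13 for Gstt1 in flox/+ spheroids, -0.06 and 0.06 for Gstt1 and -0.14 and 0.13 for Ugt1a1 between flox/+ and +/+ organoids, and -0.15 and 0.09 for Gsta4 between 10 and 3 µM A-485. Depth limits the genes at a few reads, such as Ces1b and Ces1c, where a group without reads gives a bound only.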
